A study of Rattus norvegicus with 6 samples.

Results

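Vcam1, Icam1, Ncam1 and Alcam encode cell surface adhesion molecules built from immunoglobulin-like domains, and all 4 were measured in rat oligodendrocyte precursor cells. They were picked by their rat Ensembl gene identifiers out of the 20174 features on the chip. ENSRNOG00000014333 was taken for Vcam1, ENSRNOG00000020679 for Icam1, ENSRNOG00000031890 for Ncam1 and ENSRNOG00000001989 for Alcam, and each identifier has 1 spot. The cells came from the brains of rat embryos (embryonic day 15, Sprague–Dawley strain, cerebral cortex) and grew as proliferating precursors in a modified Raff medium. They were treated for 20 h either with shRNA against firefly luciferase, which has no target in rat cells and served as the control, or with VCAM1 shRNA. The study's methods describe delivery of its hairpins in retrovirus vectors, which infect dividing cells. Of the hairpins made against rat VCAM1, the study names VCAM1#1 for its later experiments, and neither the labels nor the array methods name the one used for the arrays. The number of embryos behind a culture is not given in the sources used here. Total RNA of each sample was amplified, labelled with the dye Cy5 and hybridized to 1 chip, giving 3 control arrays and another 3 under the label VCAM1 shRNA, each group with replicate numbers 1 to 3. The question put to these arrays was what happens to transcripts of the precursor cells when VCAM1 is targeted, and the first check is Vcam1 itself.

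Adhesion molecules of the immunoglobulin superfamily hold cells together by binding their own kind on the next cell or other surface proteins, integrins among them. Vcam1, vascular cell adhesion molecule 1, binds α4β1 integrin and is best known from inflamed endothelium, where it slows passing leukocytes. Icam1, intercellular adhesion molecule 1, binds the leukocyte integrins αLβ2 and αMβ2, and like Vcam1 it is a textbook target of the transcription factor NF-kB in cells that meet inflammatory cytokines. Ncam1, neural cell adhesion molecule 1, binds itself on neighbouring cells, and its form with polysialic acid marks migrating neural precursors. Alcam, activated leukocyte cell adhesion molecule, binds itself and the T cell receptor CD6, and it also guides growing axons.

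The bases before the transcription starts of Vcam1 and Icam1 are shown because both genes are known for their control by NF-kB, and because the arrays give only the output of such regions. The sequences are the 250 bases upstream of the RefSeq start in the GRCr8 build, Vcam1 at chr2:206742784-206743033 on the minus strand and Icam1 at chr8:27829595-27829844 on the plus strand, each written 5′ to 3′ along the gene. Capitals mark matches to the NF-kB consensus, to the TATA box letters TATAAA and to the letters GGAAATTCC.
Vcam1: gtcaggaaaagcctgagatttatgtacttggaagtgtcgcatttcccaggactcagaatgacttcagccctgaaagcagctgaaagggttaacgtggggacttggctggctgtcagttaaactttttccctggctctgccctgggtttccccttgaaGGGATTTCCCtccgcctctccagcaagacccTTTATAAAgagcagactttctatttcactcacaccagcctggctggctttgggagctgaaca
Icam1: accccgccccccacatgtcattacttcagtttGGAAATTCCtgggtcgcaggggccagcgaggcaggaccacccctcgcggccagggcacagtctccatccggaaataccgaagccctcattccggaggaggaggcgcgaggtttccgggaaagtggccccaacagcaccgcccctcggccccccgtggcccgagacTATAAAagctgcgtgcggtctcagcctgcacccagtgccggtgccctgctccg

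Counting only stretches that fit every consensus letter, the Vcam1 window held 1 match to the NF-kB consensus, from base -93 to -84 counted back from the start. The consensus allows more than 1 letter at some positions and fits those bases along either strand, so the search of both strands found the match on each. A match to this consensus lay in 6.33% of all 33469 rat promoter windows of the same length. TATAAA began at base -60 in Vcam1, where a match on the opposite strand overlaps it, and at base -53 in Icam1, against 12.9% of all windows with at least 1 match on either strand. The Icam1 window had no match to the consensus as searched and held GGAAATTCC from base -218 to -210, a form that was looked for only after the sequence had been read and that 0.287% of windows contain. No such form was added from the Vcam1 sequence. There the bases gggtttcccc, shortly upstream of the counted match, miss the consensus by 1 letter and were not counted. Alcam, whose window is not printed, had a consensus match from base -216 to -207 and no TATAAA. The Vcam1 window had a G and C content of 50.4% with 3 CG pairs, close to the median window (51.2% and 5), whereas the Icam1 window had 66.0% with 19 CG pairs and the Alcam window 60.8% with 17. These matches describe letters, and binding of a factor was not measured. Ncam1 is not in the promoter table used here.

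No reduction of Vcam1 was detected on the arrays labelled VCAM1 shRNA. Its scaled signal, in units that set the median detected feature of an array to 25, was 1690, 2003 and 2133 on control arrays 1, 2 and 3. With the VCAM1 label it was 1829, 2172 and 1798. The lowest of the 6 values belonged to a control array and the highest to an array labelled VCAM1 shRNA, and the groups overlapped. The means were 1942 ± 228 (SD, n = 3) and 1933 ± 208 (SD, n = 3), a log2 fold change of -0.0051 with a standard error of 0.22 (limma, adjusted p = 0.999994; two-sided exact permutation test, p = 1). The 95% confidence interval ran from -0.51 to 0.50 on the log2 scale, which is a change of -30.0% to 41.8%. With 3 arrays a group, the fit as reported could not tell a reduction within that range from no change. The study itself listed VCAM1 as lower in its array comparison, by a log2 ratio that lies inside this confidence interval. The study considered a large knockdown unlikely in so short an experiment. It showed knockdown by its hairpins at the protein level, by immunoblot. Because the targeted transcript showed no detected reduction here, the group is called labelled VCAM1 shRNA throughout. The position of the probe along the transcript is not given in the files.

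**Figure D1:**
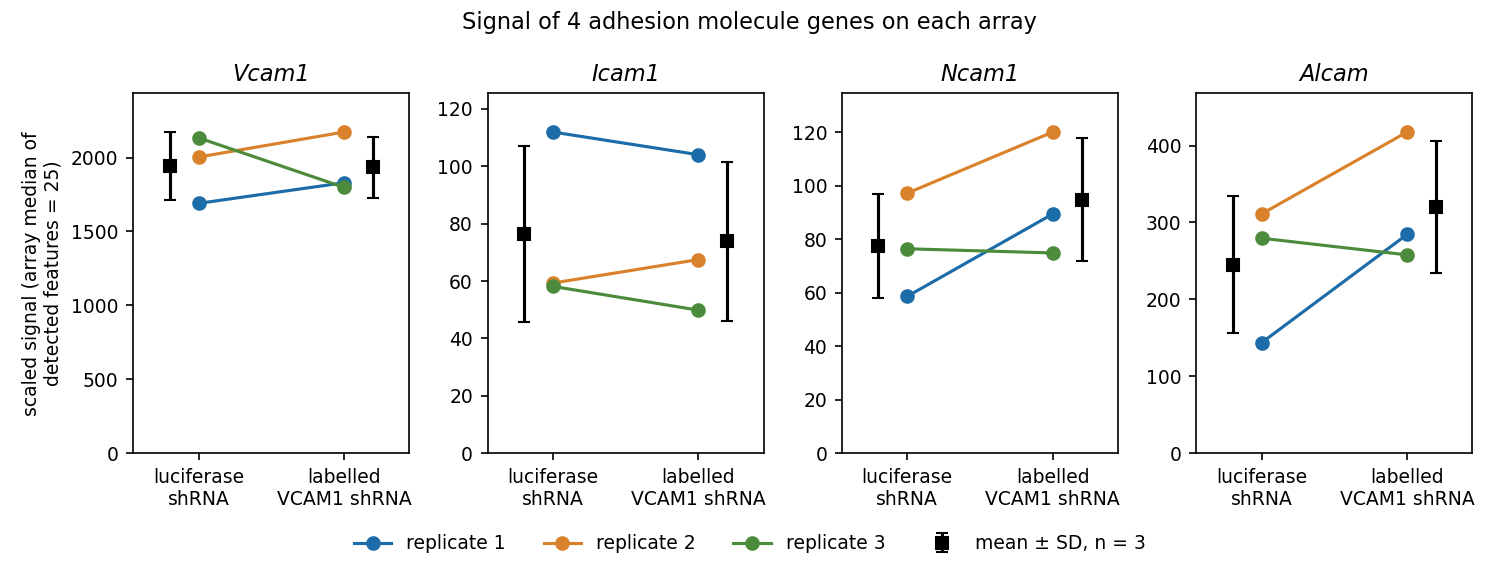
Scaled signal of Vcam1, Icam1, Ncam1 and Alcam on each of the 6 arrays (y axis, linear, array median of detected features = 25). Coloured points joined by lines are same-numbered arrays and black squares with bars are group means ± SD (n = 3); each panel has its own scale, since signals of different probes cannot be ranked, and in every panel the 2 groups overlap.

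Icam1 had its highest signals on the arrays numbered 1, with either shRNA. Its signal was 111.9 on control array 1, against 59.3 and 58.1 on control arrays 2 and 3. With the VCAM1 label it was 104.0 for number 1, 67.5 for number 2 and 49.9 for number 3. Both arrays numbered 1 thus lay above all 4 others, whatever the shRNA. The group means were 76.5 ± 30.7 and 73.8 ± 27.6 (SD, n = 3 each), with a log2 fold change of -0.05 (standard error 0.37, 95% confidence interval -0.88 to 0.79, limma adjusted p = 0.999994).

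Ncam1 had the lower mean on the control arrays, by less than the spread between replicates. Control arrays 1, 2 and 3 gave 58.6, 97.2 and 76.4. The arrays labelled VCAM1 shRNA gave 89.4, 120.0 and 74.8. The groups overlapped, and the arrays numbered 2 had the highest signal of each group. The means were 77.4 ± 19.3 and 94.8 ± 23.1 (SD, n = 3 each), and the log2 fold change was 0.29 (standard error 0.29, 95% confidence interval -0.36 to 0.95, limma adjusted p = 0.999994). The two-sided exact permutation test gave p = 0.5, where 0.1 is the smallest p that 3 arrays against 3 allow.

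Alcam showed the widest difference of group means among the 4 genes on the log2 scale, and it too did not pass. Its signal was 143.8, 311.2 and 279.5 on control arrays 1, 2 and 3, and 284.4, 417.5 and 257.8 with the VCAM1 label. Control array 1 stood well below the other 5 values, which overlapped. The means were 244.8 ± 88.9 and 319.9 ± 85.6 (SD, n = 3 each), with a log2 fold change of 0.43 (standard error 0.35, 95% confidence interval -0.37 to 1.23, limma adjusted p = 0.999994; exact permutation p = 0.5). Of all features tested, 9.02% had a larger log2 fold change in size. Without control array 1 the Alcam value was 0.085.

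None of the 4 genes passed limma at an adjusted p below 0.05, nor did any of the 16141 features tested (0%). At an unadjusted p below 0.05, 286 features (1.77%) were called and 0 of the 4 genes. The groups did not overlap for 4.33% of the features and for 0 of the 4 genes. When the fit took the replicate number as a block, 20 features (0.124%) passed after adjustment and 874 (5.41%) before it, with 0 of the 4 genes among either, and the adjusted p of each gene was 0.999994.

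Comparing same-numbered arrays, Vcam1, Ncam1 and Alcam had the same signs: higher with the VCAM1 label in pairs 1 and 2 and lower in pair 3. On the log2 scale the Vcam1 differences were 0.11, 0.12 and -0.25. Those of Icam1 were -0.11, 0.19 and -0.22. Ncam1 gave 0.61, 0.30 and -0.03, and Alcam 0.98, 0.42 and -0.12. The chip as a whole moved with these signs, as the median difference over all features tested was 0.28 in pair 1, 0.18 in pair 2 and -0.27 in pair 3, with 82.5%, 75.6% and 16.4% of features higher. The sign was the same in all 3 pairs for 0 of the 4 genes and for 18.0% of all features. The scaling takes its median over the features an array detects, and that number was 15841, 15900 and 15723 on control arrays 1, 2 and 3 and 17068, 16586 and 14701 with the VCAM1 label.

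The arrays were therefore also scaled on the 14201 features detected on all 6 arrays, a step chosen after seeing the data, which brought the chip medians of the 3 pairs to between -0.011 and 0.0090. Vcam1 then differed by -0.18, -0.07 and 0.04 in pairs 1, 2 and 3, and its log2 fold change was -0.07. With this scaling and the replicate block together, the 95% confidence interval for Vcam1 covered a change of -20.9% to 14.6% (limma, adjusted p = 0.837). Icam1 differed by -0.40, 0.0032 and 0.06, the difference of pair 1 being the widest.

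Ncam1 and Alcam were higher in each pair under the common scaling. Ncam1 differed by 0.31, 0.12 and 0.25, and Alcam by 0.69, 0.24 and 0.17. Quantile normalization gave positive differences in all 3 pairs for both genes as well, from 0.12 to 0.37 for Ncam1 and from 0.12 to 0.84 for Alcam. These were 2 of the 4 genes, and among all features 17.8% were higher in all 3 pairs under the common scaling and 17.3% under quantile normalization. Counted in either direction, 35.9% and 35.7% of all features kept 1 sign in the 3 pairs. With common scaling and the block, the log2 fold change was 0.23 (95% confidence interval -0.03 to 0.49, limma adjusted p = 0.460) for Ncam1 and 0.37 (95% confidence interval -0.00057 to 0.73, limma adjusted p = 0.414) for Alcam.

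**Figure D2:**
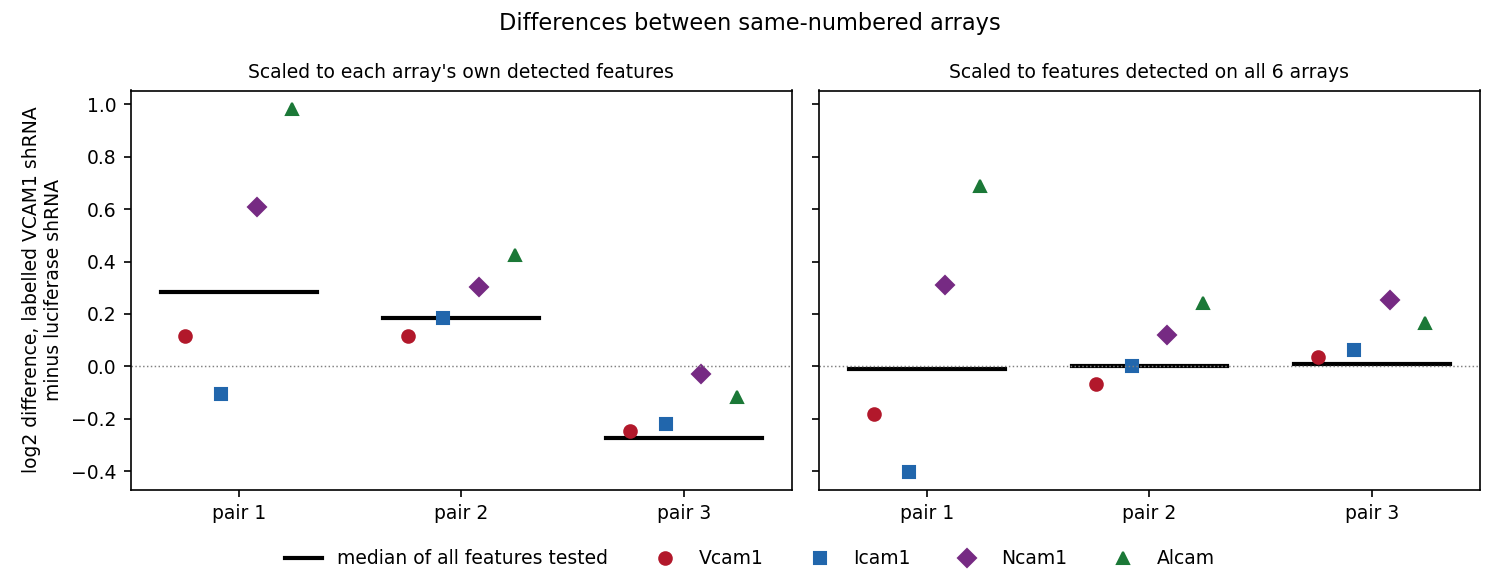
Log2 difference between same-numbered arrays, labelled VCAM1 shRNA minus luciferase shRNA (y axis), for each of the 3 pairs (x axis), with 1 symbol a gene and a black line for the median of all features tested. On the left, each array is scaled to its own detected features and the chip median moves from 0.28 to -0.27; on the right, with the 14201 common features, the chip medians lie between -0.011 and 0.0090 and Ncam1 and Alcam lie above them in every pair.

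Chip position gave another reference for each gene. The spots are laid out in blocks, and the median difference of the features in a gene's own block was set beside that gene. The block of Vcam1 had medians of 0.36, 0.26 and -0.28 in pairs 1, 2 and 3, so Vcam1 stood at -0.24, -0.14 and 0.03 relative to its surroundings. Relative to its own block Alcam stood at 0.61, 0.31 and 0.20, and Icam1 at -0.30, -0.02 and -0.09. The block of Ncam1 differed from the chip, with medians of 0.11, 0.05 and -0.02, and relative to it Ncam1 stood at 0.50, 0.26 and -0.0050. Relative to the blocks, the order of the genes was that of the plain differences in pair 1, while in pair 3 Vcam1 moved from the lowest place to the second and Ncam1 from the highest to the third. The part of position in the differences was not tested.

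The spots of the 4 genes lay far above the blank level and, as across the chip, less far above the fluorescence measured beside them. Over all detected features of an array, the local background had a median share of 55.1% to 85.3% of the spot. The background-corrected signal of every gene on every array was at least 60.7 times the detection limit, which is 2 SD of the blank spots, and for Vcam1 at least 1903 times. The local background around the Vcam1 spot was 48.8%, 76.3% and 84.1% of the spot median on control arrays 1, 2 and 3. With the VCAM1 label it was 40.0%, 70.3% and 31.2%, lower in each pair and most so in pair 3. In pair 3 the median over all detected features was also lower with the VCAM1 label, 65.8% against 84.6%, but in pair 1 it was higher, 64.5% against 55.1%. The background itself was brighter around the Vcam1 spot, at 1283 to 3662 scanner units, than around the Ncam1 spot, at 105 to 266. So were the spots themselves, at 3477 to 4455 for Vcam1 and 163 to 280 for Ncam1. At the positive control spots the median share was 29.1% to 76.0% over the arrays. For Alcam the share ranged from 11.7% to 87.0% over the 6 arrays, and for Ncam1 from 64.1% to 97.5%. For Icam1 it ranged from 57.5% to 105.0%, the latter on array 1 labelled VCAM1 shRNA, where the surroundings were brighter than the spot.

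**Figure D3:**
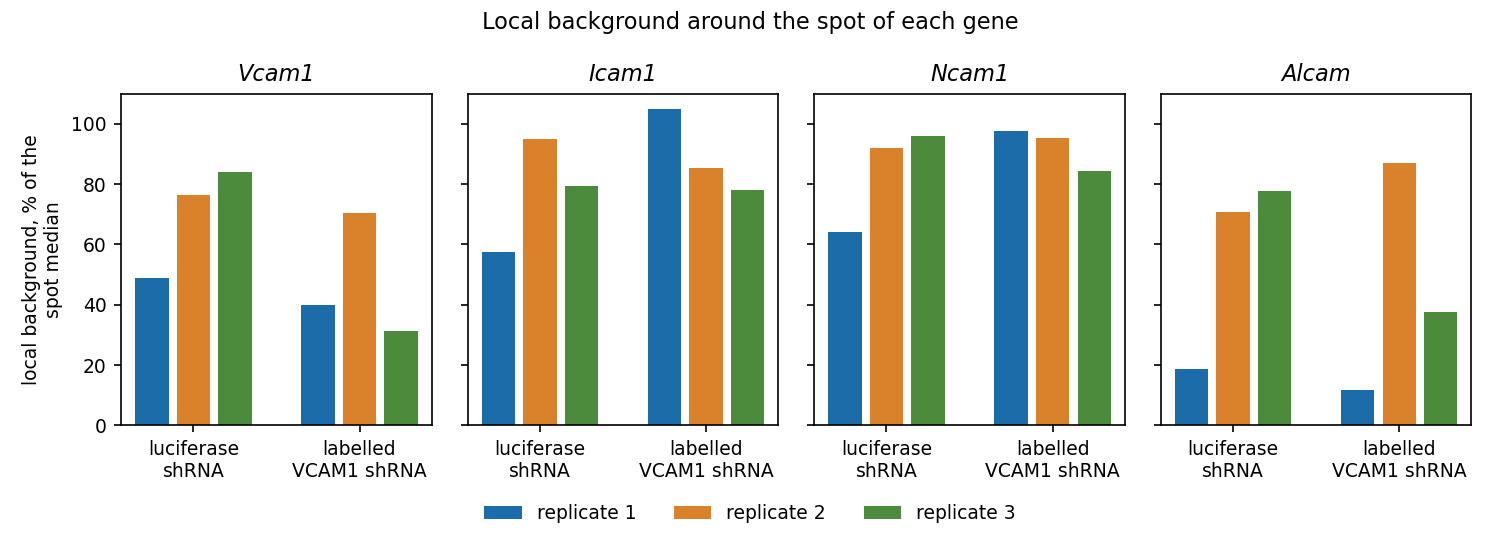
Local background as a percentage of the spot median (y axis, from 0) for each gene, with 1 bar an array, coloured by replicate number and grouped by shRNA. The Vcam1 bars run from 31.2% to 84.1% and are lower with the VCAM1 label in every pair.

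The authors' deposited signals use the blank spots and not this local background, and so do the values above. When the local background entered the correction (normexp followed by quantile normalization), Vcam1 was higher with the VCAM1 label in all 3 pairs, by 0.43, 0.29 and 0.94 on the log2 scale. Its log2 fold change became 0.56 (95% confidence interval 0.21 to 0.91), with a limma p of 0.0095 unadjusted and 0.999763 adjusted. How far the local background depends on the brightness of the spot itself was not tested, and this value rests on that background. Under this processing 2.63% of all features had an unadjusted p below 0.05, and 11.4% were higher in all 3 pairs. Ncam1 changed sign, to -0.14, and Icam1 went to -0.34. Alcam remained positive at 0.25, with a difference of -0.67 in pair 2. The lowest Vcam1 value under any alternative run was a log2 fold change of -0.10, without control array 1.

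**Figure D4:**
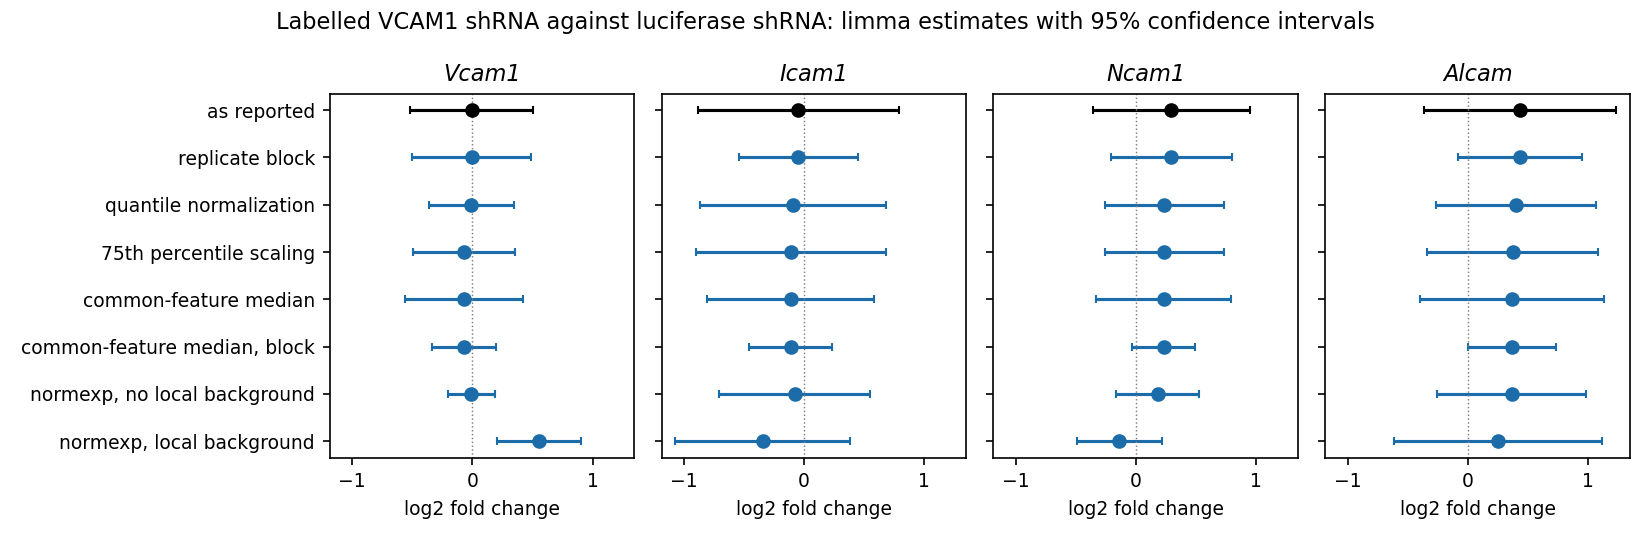
Log2 fold change, labelled VCAM1 shRNA against luciferase shRNA (x axis), with its 95% confidence interval from limma, for each gene as reported (black) and under 7 other ways of processing or testing (blue). The intervals include 0 except that of Vcam1 with the local background, at 0.56.

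How the genes varied with the replicate number was then tested, in the fit that also holds the shRNA, a test chosen after seeing the data. Icam1 was lower on the arrays numbered 2 and 3 than on those numbered 1, with log2 differences of -0.77 and -1.0 (limma F-test, adjusted p = 0.0394). At this threshold 14.2% of all features differed by replicate number. The adjusted p for Icam1 was 0.0633 with the common scaling and 0.0506 with quantile normalization, and so moved across 0.05. The log2 differences were -0.74 and -0.68 in the former and -0.84 and -0.79 in the latter. That of number 2 stayed close to -0.77, while that of number 3 was smaller in size than -1.0. With the scaling as reported, Alcam differed from number 1 by 0.83 and 0.41 (adjusted p = 0.159), and Ncam1 by 0.58 and 0.06 (adjusted p = 0.332). Vcam1 gave 0.25 and 0.16 (adjusted p = 0.850). With the common scaling, Alcam gave 0.86 and 0.73 (adjusted p = 0.0579) and Ncam1 0.61 and 0.38 (adjusted p = 0.0657). Vcam1 then gave 0.28 and 0.48 (adjusted p = 0.102). Icam1 thus did not stand apart from Alcam and Ncam1 in this F-test under the common scaling. With quantile normalization the adjusted p was 0.143 for Alcam, 0.10048 for Ncam1 and 0.361 for Vcam1. Blank spots had a trimmed mean of 17.5 and 13.9 in scanner units on the arrays numbered 1 and between 38.4 and 39.7 on the others, so differences between samples and between chips cannot be told apart in these values.

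Across the 6 arrays the log2 signals of Ncam1 and Alcam followed each other (Pearson r = 0.94), as they did with the common scaling (r = 0.96). Icam1 ran against both, at -0.30 with Ncam1 and -0.52 with Alcam, and at -0.90 and -0.96 with the common scaling. Vcam1 had r = 0.82 with Alcam, 0.73 with Ncam1 and -0.53 with Icam1, and with the common scaling these were 0.57, 0.52 and -0.71. The 6 arrays form 3 pairs by replicate number and are not independent, so these values describe the arrays only. Among the 14200 other features detected on all arrays, the one most like Vcam1 was ENSRNOG00000002128 (r = 0.997 over 6 arrays), and the one most like Icam1 was ENSRNOG00000008964 (r = 0.998). With only 6 arrays high values are frequent, as 6.18% of the features had an r above 0.9 with Vcam1 and 7.39% with Icam1, and rank 3 for Vcam1 was still at 0.996.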

How the data were processed

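The authors deposited 2 kinds of intensity values: the scanner's spot and local background medians at 635 nm, neither subtracted nor normalized, and a table of normalized signals on a linear scale. Per the methods, a global normalization set the median detected signal to 25, and the tables had a median of 25 on each array. Here the trimmed mean of the 5808 blank spots (5% left out at each end) was subtracted, features not above it by 2 SD or flagged by the scanner software were set to the lowest detected signal, and signals were scaled to the median of 25. Among features detected in both, the result differed from the deposited values by at most 0.18%, and on 3 arrays the detection calls of 14, 6 and 5 features differed. Features detected on 3 or more arrays were compared on the log2 scale with limma (lmFit, eBayes, Benjamini-Hochberg, threshold 0.05), and single genes by exact permutation. Labels do not say that the arrays of a group come from separate cultures beyond their numbers, so p-values measure the spread between these arrays, and their number limits the precision. Arrays with the same number deviated together from the group means (correlations of 0.70, 0.63 and 0.51), so the numbers pair the arrays. The fit as reported and the exact permutation did not use this pairing, while the replicate block did.

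Genes, lists and tests were chosen with earlier results of these data known. Of 20174 identifiers, 0 were found in the RefSeq gene table used (GRCr8), so the 10 gene lists drawn up (other immunoglobulin-family adhesion molecules, counter-receptors, selectins, regulators and cell type markers) were not looked up, and the precursor identity of the cells was not checked. Named were the 4 genes and the feature most like Vcam1 and most like Icam1; the rule gave 3 such features a gene, and without symbols only these are printed. Promoter sequences are from RefSeq (3 of 4 genes matched). The fit was tested on simulated data with larger changes than any found for the 4 genes. Changes of the size reported were not covered by that test. Software was limma 3.58.1 in R 4.3.3, with scipy 1.17.1, pandas 2.3.3 and numpy 2.4.6, and matplotlib 3.10.9 for figures. The alternatives are given in the closing section. The chip's annotation release is not given in the sources used here.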

Additional observations from a re-analysis of the deposited data

How the results depend on the processing

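Of 25 alternatives, 2 (common-feature scaling) were chosen after seeing the data. In all 25, 0 of the 4 genes had an adjusted p below 0.05. The lowest were 0.560 for Vcam1, 0.785 for Icam1, 0.202 for Ncam1 and 0.192 for Alcam. Alcam kept its direction in 25, Ncam1 in 24, Icam1 in 22 and Vcam1, at -0.0051, in 19. Several alternatives, like the replicate block, could not move the estimate. With the local background, Vcam1 was 0.56 and Ncam1 -0.14. Leaving out 1 array gave between -0.10 and 0.07 for Vcam1, -0.33 and 0.26 for Icam1, 0.11 and 0.47 for Ncam1, and 0.085 and 0.64 for Alcam. The Vcam1 value was 0.021 without control array 2, 0.066 without control array 3, and 0.032 and 0.044 without arrays 1 and 3 labelled VCAM1 shRNA. The Icam1 value was 0.26 without control array 1 and 0.20 without array 3 labelled VCAM1 shRNA. Leaving out a whole pair, with the replicate block, gave between -0.07 and 0.12 for Vcam1, -0.16 and 0.040 for Icam1, 0.14 and 0.46 for Ncam1, and 0.15 and 0.70 for Alcam; the highest values for all 4 genes came without pair 3. The replicate block changed no call for the 4 genes.

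Over the whole chip, 0 features had an adjusted p below 0.05 as reported, 3 with normexp on the spot median, 20 with the replicate block, and between 0 and 21 with the block and 1 pair left out (21 without pair 1, 17 without pair 2). With the common-feature scaling it was 0, with and without the block. The unadjusted count, 286 as reported, was 650 with quantile normalization, 621 with the 75th percentile, 839 with normexp on the spot median, 874 with the replicate block, 502 with the methods' paired t-test, 602 with the common-feature scaling and 1958 with that scaling and the block. It lay between 166 and 1357 with 1 array left out (166 without control array 2, 182 without array 2 and 1357 without array 3 labelled VCAM1 shRNA) and between 218 and 3782 with 1 pair left out (555 without pair 1, 3782 without pair 3). In the latter the median of all features moved to 0.23, and without array 3 labelled VCAM1 shRNA to 0.25. Higher features made up 188 of the 286, 272 of 650 with quantile normalization and 302 of 602 with the common scaling, so no direction is drawn from them. For all of these, the cause was not tested. The gene lists were not run, and no slide or scan date was found in the headers. The share of the local background reached 84.1% for Vcam1 and 105.0% for Icam1, and its part in the spread between arrays was not tested.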
